A study of Homo sapiens with 12 samples.

Results

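MYC and 35 factors that build ribosomes were followed in HUDEP-2 cells, an immortalized human erythroid progenitor line, by RNA sequencing with and without MBD2. The 36 genes were chosen by name (MYC, RNA polymerase I genes and nucleolar assembly factors) and joined to the count table by Ensembl identifier, which found all 36 among its 60483 genes. The rule itself uses no measured value, although the set was drawn up with earlier results of these data known. By role they comprised MYC itself, 5 genes of RNA polymerase I (Pol I) transcription, 8 proteins of the box C/D and H/ACA particles, 8 small subunit assembly factors, 8 large subunit assembly factors and 6 other nucleolar proteins. Control cells carried a scrambled guide RNA and were wild type at MBD2, and knockout cells were MBD2-/-. Before differentiation (labelled early basophilic erythroblast) both grew with stem cell factor, dexamethasone, erythropoietin and doxycycline. After it (labelled late basophilic erythroblast) both had been moved to medium with human serum, insulin, heparin, transferrin, erythropoietin and doxycycline. Each of these 4 groups held 3 libraries. The labels give 3 days of differentiation in one field and 5 days in another, and do not say whether the knockout cells were a clone or the replicates separate cultures. The p-values therefore measure only the spread between these libraries.

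MYC is a transcription factor that pairs with MAX on E-box DNA and is known for raising the genes of cell growth, above all those of ribosome production. A ribosome begins in the nucleolus, where Pol I transcribes the large precursor RNA. Small nucleolar RNA particles modify that RNA, and many proteins cut and fold it into the small and the large subunit. Erythroid precursors build many ribosomes while they divide, and ribosome production falls as they mature. MBD2 is a reader of DNA methylation that works with the NuRD chromatin complex.

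Libraries held 7667997 to 14047498 counts, and the lowest count of any of the 36 genes in any library was 140. All 36 passed the expression filter, with 17175 genes tested in all. MBD2 mRNA measured 75.1 to 78.5 CPM (counts scaled to a common library size with TMM factors) in control and 19.8 to 24.4 CPM in knockout libraries before differentiation. After it MBD2 measured 58 to 61.2 CPM and 14.6 to 16.7 CPM. The slope of expression on gene GC content stood apart in knockout replicate 2 before differentiation (0.18 log2 units per 10% GC), control replicate 1 before it (-0.16) and knockout replicate 3 after it (0.13), against -0.09 to 0.03 in the other 9 libraries. Lymphoid and stromal markers summed to at most 0.734 and 1.16 CPM in any library.

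Per kilobase of exon, the abundant nucleolar proteins stood highest and the processing factors spread over a wide range below them. In control cells before differentiation NPM1 (nucleophosmin, a histone and ribosomal protein chaperone) measured 208 ± 21.5 CPM per kilobase (SD, n = 3). The next were NCL (nucleolin) with 151 ± 14.8, the RNA helicase DDX21 with 129 ± 2.58 and the RNA methyltransferase fibrillarin, FBL, with 121 ± 12. The ranges of mean ± SD overlapped for DDX21 and FBL, which did not differ beyond their spread, and for no other neighbours among these 4. MYC measured 61.7 ± 4.79 CPM per kilobase, and the small subunit factor RRP12 was lowest with 2.94 CPM per kilobase. NPM1 has 49 named processed copies in the genome, which together held 139% of its own counts, so its level depends on how reads were shared.

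Promoter sequence was read for 29 of the 36 genes from RefSeq windows of 300 bases (250 before the transcription start and 50 after it, build GRCh38.p14). No entry was found for MYC, TCOF1, NOP58, NOLC1, RRP12, BOP1 and RRS1. The E-box CACGTG, which reads the same on both strands and is the site MYC and MAX are known to prefer, occurred in 10 of the 29 windows (34.5%). It occurred in 7.43% of all 27305 windows in the table and in 8.88% of the 15843 windows of protein-coding genes. The 10 sites are shown because they share this hexamer and a place near the start. Each is printed 5′ to 3′ on the strand of its gene with 9 bases on either side, and capitals mark the hexamer.
FBL, chr19:39846359-39846382, minus strand: gctcttttcCACGTGcgaaagccc
RRP9, chr3:51941895-51941918, minus strand: ttcagctgcCACGTGagttctgcg
WDR43, chr2:28894661-28894684, plus strand: acggacgaaCACGTGgctgcagcg
UTP4, chr16:69132624-69132647, plus strand: gcgcgcgcgCACGTGgggccgggg
UTP20, chr12:101280086-101280109, plus strand: ttttccgtcCACGTGacccactca
NOP14, chr4:2963377-2963400, minus strand: gcggcccggCACGTGtcttagggt
NAT10, chr11:34105605-34105628, plus strand: gcgcttgcgCACGTGctgtctacc
PES1, chr22:30591883-30591906, minus strand: ttggcagggCACGTGcgggaggaa
NOP2, chr12:6568242-6568265, minus strand: tccggattgCACGTGgagggccgc
MYBBP1A, chr17:4555343-4555366, minus strand: gccggagcaCACGTGtttcgtgtt
The hexamer began between 16 bases upstream of the start (UTP4) and 35 bases downstream of it (NOP2). A match describes these letters only, and binding was not measured.

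Before differentiation the called genes of the set were all higher in knockout than in control cells. Of the 36 genes, 15 rose, none fell (0) and 21 were not called (edgeR's quasi-likelihood test, threshold 0.05 after Benjamini-Hochberg adjustment over the 17175 genes), where 17.2% of all genes were called, 9.07% higher and 8.15% lower. The median log2 fold change was 0.19 against -0.00 over all genes tested, and 34 of the 36 estimates lay above 0. The summed level of the 36 genes was 6364 to 6616 CPM in the control libraries and 7033 to 7788 CPM in the knockout libraries. By role, 4 of 8 box C/D and H/ACA proteins, 4 of 8 small subunit factors, 4 of 8 large subunit factors and 3 of 6 other nucleolar proteins rose, but none of the 5 Pol I genes, and not MYC. Knockout libraries lay wholly above control libraries for 18 of the 36 genes and wholly below for 0, where 15.3% and 15.4% of all genes did so. By edgeR at an unadjusted p under 0.05, and by DESeq2 and limma-voom after adjustment, the count of falls was also 0.

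**Figure D1:**
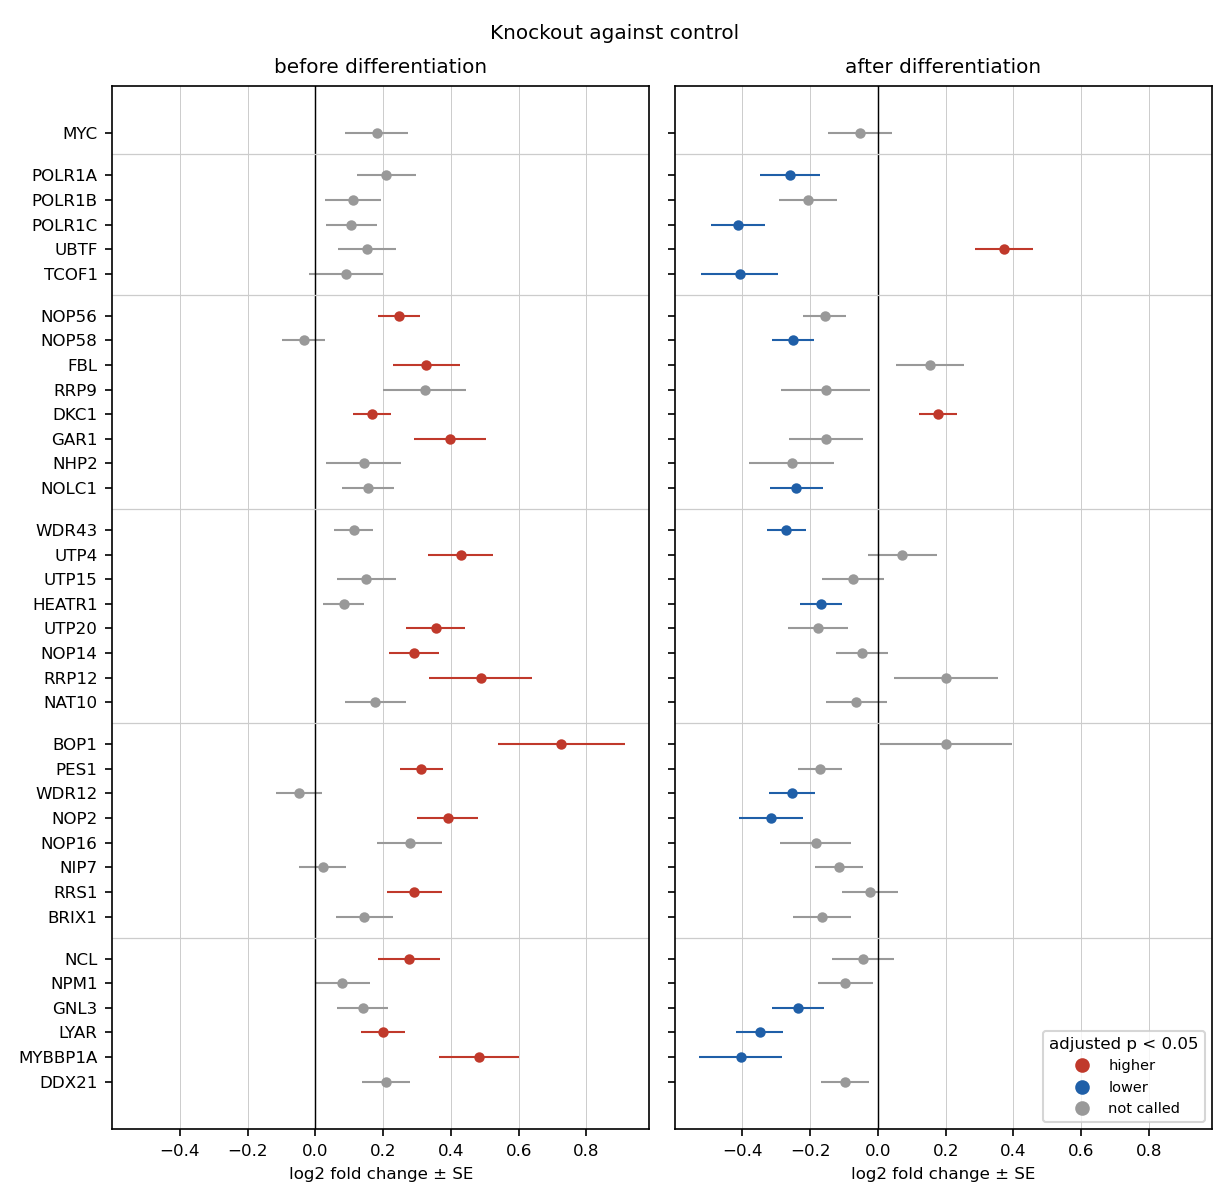
Log2 fold change of knockout against control cells for the 36 genes, grouped by role, before (left) and after differentiation (right); points are estimates, bars are ± SE, and color shows the call at an adjusted p under 0.05. Most points lie above 0 on the left, where 15 genes were called higher, and below 0 on the right, where 12 were called lower and only UBTF and DKC1 higher.

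MYC (ENSG00000136997.13, build hg38, chromosome 8, 127735434 to 127741434, plus strand) had 171, 186 and 199 CPM in the control libraries and 187, 245 and 198 CPM in the knockout libraries before differentiation. The groups overlapped, and the log2 difference was 0.18 ± 0.09 (adjusted p = 0.212). After differentiation MYC measured 202, 205 and 197 CPM in control against 179, 191 and 213 CPM in knockout libraries, overlapping again (-0.05 ± 0.09, adjusted p = 0.713). Differentiation moved it by 0.12 ± 0.09 in control (adjusted p = 0.318) and -0.11 ± 0.09 in knockout cells (adjusted p = 0.321). MYC mRNA thus passed the test in none of the 5 contrasts, as did NAT10, NIP7 and BRIX1. Only with library sizes alone was one of these MYC contrasts called, in differentiating knockout cells (-0.30, adjusted p = 0.0227), where the median of all genes was -0.16.

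Among small subunit factors, UTP4, part of the early complex on the precursor RNA, measured 48, 54.3 and 53.4 CPM in control against 59.8, 81 and 69.6 CPM in knockout libraries before differentiation. UTP20, a scaffold of the small subunit precursor, measured 129, 129 and 123 CPM in control against 146, 149 and 193 CPM in knockout libraries. In both genes every knockout library lay above every control library. UTP4 rose by 0.43 ± 0.10 on the log2 scale (adjusted p = 0.00441) and UTP20 by 0.35 ± 0.09 (adjusted p = 0.00809). NOP14, another processing factor, rose by 0.29 ± 0.07, and RRP12, which acts late and in export of the subunits, rose by 0.49 ± 0.15. Of the other members of this group, WDR43, UTP15, HEATR1 and NAT10 measured 0.08 to 0.18 and did not pass the test.

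Among large subunit factors, PES1, which with BOP1 and WDR12 forms the PeBoW complex, measured 111, 121 and 118 CPM in control against 136, 153 and 145 CPM in knockout libraries. NOP2, a methyltransferase of the large subunit RNA, measured 54.3, 55.2 and 60.4 CPM in control against 63.4, 75.3 and 84.3 CPM in knockout libraries. The groups did not overlap for either gene. PES1 rose by 0.31 ± 0.06 (adjusted p = 0.00215) and NOP2 by 0.39 ± 0.09 (adjusted p = 0.00596). BOP1 rose by 0.73 ± 0.19, the largest estimate of the 36, and this rested in part on knockout replicate 2. Its levels were 31.3, 37.1 and 44 CPM in control against 48.3, 89.4 and 48.7 CPM in knockout libraries, and its log2 change was 0.37 without that library (adjusted p = 0.0492). The third PeBoW gene, WDR12, measured -0.05 ± 0.07 and did not pass the test. RRS1, which helps bring in the 5S particle, rose by 0.29 ± 0.08.

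Among the other nucleolar proteins, MYBBP1A, a MYB-binding protein that also restrains ribosomal RNA synthesis, measured 28.9, 34.7 and 33.8 CPM in control against 36.6, 53.2 and 47.2 CPM in knockout libraries before differentiation. All 3 knockout libraries lay above the control libraries, and MYBBP1A rose by 0.48 ± 0.12 (adjusted p = 0.00854). NCL rose by 0.28 ± 0.09 and LYAR, a zinc finger protein that also binds the fetal gamma-globin gene, by 0.20 ± 0.07. In the modification particles, the box C/D core proteins NOP56 and FBL rose by 0.25 ± 0.06 and 0.33 ± 0.10, while their partner NOP58 measured -0.03 ± 0.06 and was not called. The H/ACA pseudouridine synthase DKC1 rose by 0.17 ± 0.06 and its partner GAR1 by 0.40 ± 0.11. The 5 Pol I genes POLR1A, POLR1B, POLR1C, UBTF and TCOF1 measured 0.09 to 0.21, and none passed the test.

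Of the 15 calls before differentiation, those of UTP4, UTP20, PES1, NOP2 and MYBBP1A held under all settings tried, and these 5 alone were called without control replicate 1 (the others then at adjusted p 0.0549 to 0.234). Without control replicate 2, 9 genes were called, and FBL, DKC1, NOP14, RRS1, NCL and LYAR were lost (adjusted p 0.058 to 0.15). Without knockout replicate 2 the calls of FBL, DKC1, GAR1, RRP12, RRS1 and NCL were lost (0.073 to 0.2), and without knockout replicate 3 those of NOP56, DKC1, NOP14, NCL and LYAR (0.0581 to 0.188). DKC1, NCL and LYAR lost their calls without any 1 of 11, 9 and 10 of the 12 libraries. With offsets for GC content, on which control replicate 1 and knockout replicate 2 stood apart, 20 genes were called higher and 0 lower. Over all 17055 genes then tested 1859 were higher and 1493 lower, against 1558 and 1400 of 17175 without offsets. In the same comparison 7 of 12 erythroid markers rose (4 without control replicate 1). Without the globin genes, whose RNA the kit removes, 7 of 9 rose, summing to 7012 to 7554 CPM in control and 7537 to 9076 CPM in knockout libraries. Of 7 tested mast cell and basophil markers 4 fell (953 to 1007 against 747 to 775 CPM), and 5 of 5 tested neutrophil and monocyte markers rose (10.4 to 12.1 against 26.8 to 36.3 CPM). The part of these markers in the result was not tested.

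The 10 genes with an E-box in the promoter window and the 19 without one were set side by side as a description. Before differentiation 7 of the 10 rose in knockout cells (FBL, UTP4, UTP20, NOP14, PES1, NOP2 and MYBBP1A), and 5 of the 19 rose (NOP56, DKC1, GAR1, NCL and LYAR). Over all tested genes with a window, 12.8% of 1083 with the hexamer and 11% of 9189 without it were called higher. Of the calls among carriers, those of FBL and NOP14 were each lost without any 1 of 3 libraries, FBL without control replicates 1 or 2 or knockout replicate 2 and NOP14 without control replicates 1 or 2 or knockout replicate 3. The other carriers, RRP9, WDR43 and NAT10, measured 0.32, 0.11 and 0.18 and did not pass the test.

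After differentiation most of the called genes were lower in knockout than in control cells. Of the 36 genes, 12 fell, 2 rose and 22 were not called, where 33.1% of all genes were called, 16.3% lower and 16.8% higher. The median log2 fold change was -0.16 against -0.01 over all genes, with 30 of 36 estimates below 0. The summed level was 5868 to 6136 CPM in control against 5490 to 5719 CPM in knockout libraries. By role, 3 of 5 Pol I genes fell and 1 rose, 2 of 8 modification proteins fell and 1 rose, 2 of 8 small subunit factors, 2 of 8 large subunit factors and 3 of 6 other nucleolar proteins fell. Knockout libraries lay wholly below control libraries for 19 of the 36 genes and wholly above for 2, where 23.6% and 23.2% of all genes did so. The 2 knockout effects, before and after differentiation, come from separate libraries.

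Among the Pol I genes 3 fell and UBTF rose. POLR1C (ENSG00000171453.16, hg38, chromosome 6, 43509702 to 43529585, plus strand), a subunit that Pol I shares with Pol III, measured 55.2, 55.1 and 63.6 CPM in control against 45.8, 41.1 and 43.4 CPM in knockout libraries. It fell by 0.41 on the log2 scale (SE 0.08, adjusted p = 6.42e-04), with no overlap between the groups. POLR1A, the largest subunit, fell by 0.26 (SE 0.09), and treacle, TCOF1, a nucleolar cofactor of Pol I, fell by 0.41 (SE 0.11). UBTF (ENSG00000108312.13, hg38, chromosome 17, 44205033 to 44221626, minus strand), which binds ribosomal DNA and keeps it open to Pol I, went the other way. UBTF libraries gave 141, 157 and 147 CPM in control against 179, 194 and 203 CPM in knockout libraries, and rose by 0.37 ± 0.08 (adjusted p = 0.00256). With library sizes alone the estimate for UBTF was 0.22 and was not called (adjusted p = 0.0767).

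In the modification particles NOP58, a box C/D core protein, measured 316, 328 and 335 CPM in control against 276, 272 and 274.96 CPM in knockout libraries and fell by 0.25 (SE 0.06, adjusted p = 0.00536). DKC1 measured 208, 218 and 208 CPM in control against 246, 242 and 229 CPM in knockout libraries and rose by 0.18 ± 0.06 (adjusted p = 0.0234). In both genes the groups did not overlap, in opposite directions. The DKC1 call was lost with library sizes alone (0.02, adjusted p = 0.824). The particle chaperone NOLC1 fell by 0.24 (SE 0.08). FBL, which had risen before differentiation, measured 0.15 ± 0.10 after it and did not pass the test.

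Of the subunit assembly factors, WDR43, HEATR1, WDR12 and NOP2 fell. WDR43, which sits with UTP4 in the early small subunit complex, measured 224, 220 and 222 CPM in control against 186, 186 and 181 CPM in knockout libraries and fell by 0.27 (SE 0.06, adjusted p = 0.0016). WDR12 measured 118, 136 and 122 CPM in control against 108, 108 and 100.3 CPM in knockout libraries and fell by 0.25 (SE 0.07, adjusted p = 0.0089). Neither gene's groups overlapped. HEATR1 fell by 0.17 (SE 0.06) and NOP2 by 0.31 (SE 0.09). The HEATR1 call was lost without any 1 of 10 of the 12 libraries (adjusted p 0.0526 to 0.143). It was also lost with no expression filter (0.113) and with GC offsets (0.0792). Of the PeBoW partners of WDR12, PES1 measured -0.17 ± 0.06 (adjusted p = 0.0522) and BOP1 0.20 ± 0.19 (adjusted p = 0.47), and neither passed the test.

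LYAR (ENSG00000145220.12, hg38, chromosome 4, 4267701 to 4290169, minus strand) had levels of 102, 99.9 and 108 CPM in control against 77.8, 81.5 and 83.7 CPM in knockout libraries after differentiation. All knockout libraries lay below the control libraries, and LYAR fell by 0.35 (SE 0.07, adjusted p = 7.11e-04). MYBBP1A measured 40, 46 and 42.3 CPM in control against 30.2, 31.3 and 35.9 CPM in knockout libraries and fell by 0.40 (SE 0.12, adjusted p = 0.0173). GNL3, the GTP-binding protein nucleostemin, fell by 0.24 (SE 0.08). LYAR, MYBBP1A and NOP2 were thus the 3 genes higher in knockout cells before differentiation and lower after it. Of the 17175 genes tested, 63 (0.367%) made this pair of calls. LYAR lost its call before differentiation without any 1 of 10 libraries. MYBBP1A and NOP2 each lost the call after it without any 1 of 3 libraries. A further 25 of the 36 had estimates above 0 before and below 0 after, with 1 or neither of the 2 called. Over all 17175 genes tested, 8458 estimates lay above 0 before and 8723 below 0 after. Genes with both signs were not counted there.

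The calls of POLR1C, NOP58, WDR43 and LYAR after differentiation held under all settings tried. Without knockout replicate 1 only 6 genes were called, 5 of them lower, and POLR1A, TCOF1, DKC1, NOLC1, HEATR1, NOP2, GNL3 and MYBBP1A were lost (adjusted p 0.0523 to 0.143), and without knockout replicate 2 only 8 were called (lost calls at 0.0607 to 0.114). Leaving out control replicate 1, 2 or 3 each cost 5 calls, among them WDR12 without replicate 2 (adjusted p = 0.065). With library sizes alone 23 genes fell and 0 rose, while the median of all genes moved to -0.17 and the share of higher calls among all called genes from 50.7% to 27.7%. Relative to that shift the median of the 36 was -0.15, as in the TMM fit. A change of scaling moves all genes nearly alike, so this is no separate check. In the same libraries 11 of 12 erythroid markers rose, their summed level being 20557 to 32849 CPM in knockout against 10268 to 13098 CPM in control libraries. Globin RNA had been removed with the kit and varied within groups (2218 to 14110 CPM left in knockout libraries). Without the globin genes 9 of 9 markers rose, summing to 18339 to 18739 against 9459 to 10031 CPM. Mast cell and basophil markers summed to 385 to 411 CPM against 681 to 695 CPM, and counts of ribosomal RNA genes left after depletion took 1.72 to 2.77% of knockout against 0.57 to 1.05% of control libraries. The part of these differences in the result was not tested. In bulk RNA, fewer cells of a type and less RNA per cell cannot be told apart.

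**Figure D2:**
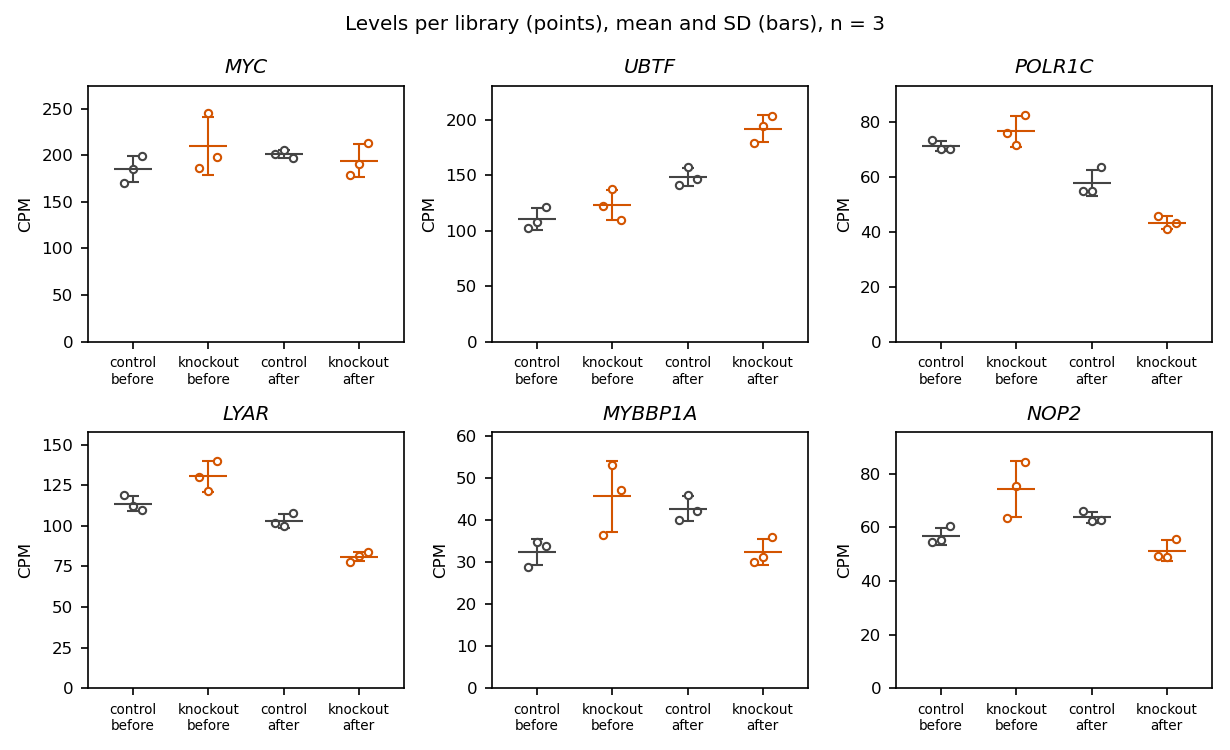
CPM (y axis, starting at 0) of MYC, UBTF, POLR1C, LYAR, MYBBP1A and NOP2 in each of the 12 libraries (open points), with the mean (long bar) and SD (whiskers) of the 3 libraries of each group. MYC groups overlap, UBTF is highest in the knockout libraries after differentiation (179 to 203 CPM), and POLR1C and LYAR are lowest there.

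Across differentiation in control cells the set was called about as often as all genes. Of the 36 genes, 11 fell, 5 rose and 20 were not called, where 43.8% of all genes were called, 22.3% lower and 21.5% higher. The median log2 change, after against before, was -0.04, and 0.01 over all genes. The falling genes comprised 4 of 8 modification proteins, 3 of 8 small subunit factors, 2 of 5 Pol I genes, 1 large subunit factor (NOP16) and 1 other nucleolar protein (NPM1). After libraries lay wholly below before libraries for 14 genes and wholly above for 7, where 27.2% and 26.8% of all genes did so.

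NPM1 measured 867, 813 and 706 CPM before and 554, 571 and 549 CPM after in control cells. FBL measured 236, 268 and 288 CPM before and 180, 206 and 183 CPM after. POLR1B, the second largest subunit of Pol I, measured 103, 101 and 107 CPM before and 77.5, 71.9 and 84.7 CPM after. No after library reached a before library in any of these 3 genes. NPM1 fell by 0.51 (SE 0.08, adjusted p = 8.32e-05), FBL by 0.48 (SE 0.10, adjusted p = 9.67e-04) and POLR1B by 0.41 (SE 0.08, adjusted p = 6.70e-04). NHP2, an H/ACA core protein, measured 32.2, 34.2 and 29.4 CPM before and 18.5, 24.9 and 22.8 CPM after and fell by 0.53 (SE 0.12, adjusted p = 0.00124). WDR43 fell by 0.27 (SE 0.06, adjusted p = 0.00105) from 272, 268 and 265 CPM. With the counts of their processed copies added, NPM1 fell by 0.50 and NHP2 by 0.60.

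The rises in control cells were those of UBTF, NOP58, GAR1, RRP12 and MYBBP1A. UBTF measured 103, 108 and 122 CPM before and rose by 0.42 ± 0.09 (adjusted p = 7.00e-04). NOP58 measured 272, 261 and 251 CPM before and rose by 0.32 ± 0.06 (adjusted p = 5.13e-04). For both genes every control library after differentiation lay above every one before it. GAR1 rose by 0.31 ± 0.11 (adjusted p = 0.0243), from 32.5, 36.4 and 34 CPM to 39.5, 48.4 and 39.8 CPM. RRP12 rose by 0.40 ± 0.15 (adjusted p = 0.0456), from 20.1, 27.8 and 27.4 CPM to 32.2, 35.4 and 31.7 CPM, and MYBBP1A by 0.40 ± 0.12 (adjusted p = 0.0122). NOP58 thus moved opposite to its box C/D partners NOP56 (-0.28 ± 0.06) and FBL, each called.

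The calls of UBTF, NOP58, POLR1B, POLR1C, NOP56, FBL, NHP2, WDR43 and NPM1 in control cells held under all settings tried. Without control replicate 2 after differentiation 9 of the 16 remained, and GAR1, NOLC1, UTP4, HEATR1, RRP12, NOP16 and MYBBP1A were lost (adjusted p 0.055 to 0.169). GAR1, RRP12 and MYBBP1A were also lost without control replicate 1 before it (0.0581 to 0.194), and NOLC1, UTP4, HEATR1 and NOP16 without replicate 2 before it (0.0657 to 0.132). Those 4 and GAR1 were lost without replicate 3 before it (0.0548 to 0.103). RRP12, UTP4, HEATR1 and NOP16 were lost without replicate 3 after it (0.0622 to 0.0906) and, with NOLC1, without replicate 1 after it (0.0544 to 0.107).

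In knockout cells differentiation lowered most of the set. Of the 36 genes, 24 fell, 1 rose and 11 were not called, where 55.7% of all genes were called, 27.7% lower and 28% higher. The median log2 change was -0.45 against 0.03 over all genes, and 32 estimates lay below 0. The falling genes were 6 of 6 other nucleolar proteins, 4 of 5 Pol I genes, 6 of 8 small subunit factors, 5 of 8 modification proteins and 3 of 8 large subunit factors. After libraries lay wholly below before libraries for 25 of the 36 genes and wholly above for 2, where 29.7% and 30.3% of all genes did so. This contrast shares no library with the one in control cells. Erythroid markers rose in both (8 of 12 in control, 9 of 12 in knockout cells) and mast cell and basophil markers fell in both (5 and 7 of 7 tested). In knockout cells 5 of 5 tested neutrophil and monocyte markers also fell (26.8 to 36.3 CPM before, 4.29 to 7.85 CPM after). Counts of ribosomal RNA genes went there from 0.851 to 1.36% before to 1.72 to 2.77% after. The part of these in the result was not tested.

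**Figure D3:**
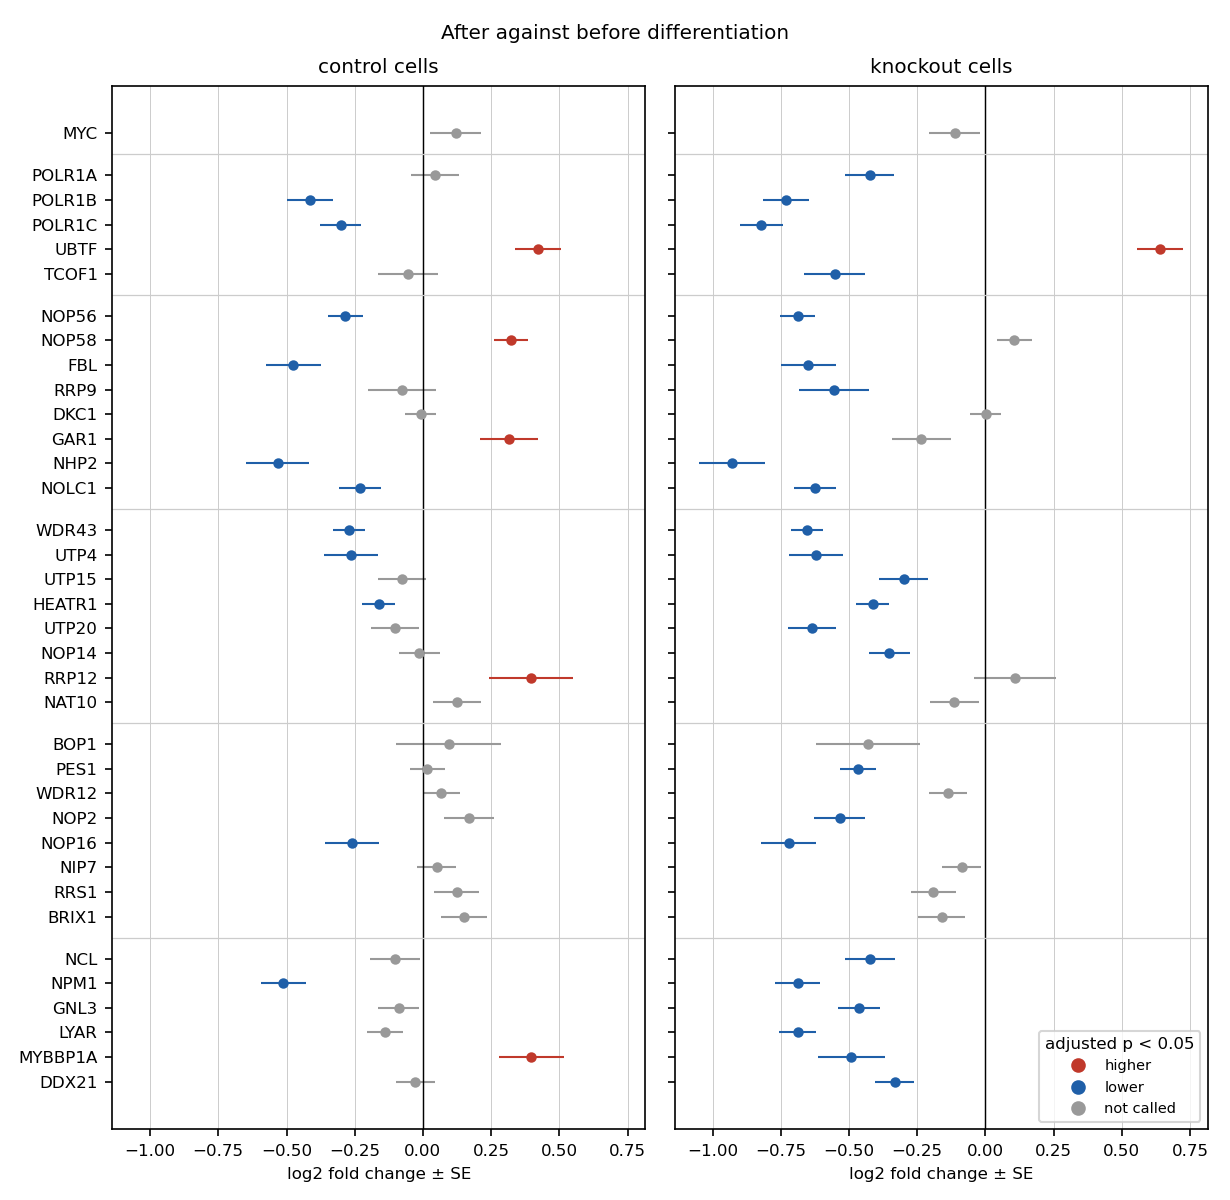
Log2 fold change of cells after against before differentiation for the 36 genes, grouped by role, in control (left) and knockout cells (right); points are estimates, bars are ± SE, and color shows the call at an adjusted p under 0.05. In control cells 11 genes were called lower and 5 higher, and in knockout cells 24 lower and only UBTF higher.

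In knockout cells POLR1C fell by 0.82 (SE 0.08, adjusted p = 1.43e-07), from 76.1, 71.6 and 82.7 CPM before. POLR1B measured 98.4, 112 and 126 CPM before and 67.2, 70.1 and 65.2 CPM after and fell by 0.73 (SE 0.09, adjusted p = 1.48e-06). UBTF measured 122, 138 and 110 CPM before and rose by 0.64 ± 0.09 (adjusted p = 6.52e-06). The Pol I genes thus lay wholly apart between the 2 stages, UBTF upward and the subunits downward. Per kilobase, UBTF went from 17.6 to 27.4 CPM in knockout cells and POLR1B from 17.7 to 10.7. Before differentiation these 2 genes did not differ beyond their SDs (1.98 and 2.17). In control cells they moved the same way, UBTF from 15.8 to 21.2 and POLR1B from 16.4 to 12.3.

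NOP56 measured 350, 367 and 407 CPM before and 229, 232 and 236 CPM after in knockout cells and fell by 0.69 (SE 0.06, adjusted p = 9.41e-08). WDR43 measured 288, 275.4 and 306 CPM before and fell by 0.65 (SE 0.06, adjusted p = 5.91e-08). LYAR measured 130, 121 and 140 CPM before and fell by 0.69 (SE 0.07, adjusted p = 2.02e-07). No library after differentiation reached the lowest library before it in these 3 genes. NHP2 fell by 0.93 (SE 0.12, adjusted p = 5.02e-06), the largest fall of the 36, from 33, 39.2 and 33.8 CPM to 20.1, 16.1 and 19.6 CPM. The small subunit factors UTP4, UTP20 and HEATR1 fell by 0.62, 0.64 and 0.41, and the nucleolar proteins NPM1, NCL and DDX21 by 0.69, 0.42 and 0.33. NOP58 (0.11 ± 0.06), DKC1 (0.00 ± 0.06) and RRP12 (0.11 ± 0.15) had estimates at or above 0 and did not pass the test, and with library sizes alone DKC1 fell by 0.18 (adjusted p = 0.0112).

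A total of 11 genes fell in both control and knockout cells (POLR1B, POLR1C, NOP56, FBL, NHP2, NOLC1, WDR43, UTP4, HEATR1, NOP16 and NPM1), 30.6% of the 36, where 18.1% of all genes did so. Another 12 fell in knockout cells and were not called in control cells, and MYBBP1A rose in control and fell in knockout cells. Over all genes tested 27.7% fell in knockout cells, including the 18.1% that fell in both. Of the calls of the 36 genes in knockout cells, 23 of the 24 falls and the rise of UBTF held under all settings tried. The call of UTP15 was lost without knockout replicate 3 before differentiation (adjusted p = 0.0752). Of the 10 genes with an E-box in the window 9 fell in knockout cells, and of the 19 without one 13 fell, where 37.4% and 32.6% of all tested genes with and without it fell.

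The knockout effect itself differed between the stages for 15 of the 36 genes, all with a lower effect after differentiation than before it (interaction contrast), where 13% of all genes were called, 6.7% lower and 6.3% higher. The median of this difference was -0.35 against -0.01 over all genes, and 34 of 36 estimates lay below 0. LYAR had -0.55 ± 0.09 (adjusted p = 9.94e-04), NOP2 -0.705 ± 0.13 (adjusted p = 0.00182), PES1 -0.48 ± 0.09 (adjusted p = 0.00199), MYBBP1A -0.89 ± 0.17 (adjusted p = 0.00234) and POLR1C -0.52 ± 0.11 (adjusted p = 0.00439). Of the 12 genes that fell in knockout cells and were not called in control cells, 8 passed this test of the difference (POLR1A, TCOF1, UTP20, NOP14, PES1, NOP2, GNL3 and LYAR), and RRP9, UTP15, NCL and DDX21 did not. These 12 were picked by their calls in the contrasts whose difference is tested here, and that choice by itself favours a negative difference. The same count over all genes was not made, so whether 8 of 12 is more than this choice gives was not tested. For MYC the difference was -0.23 ± 0.13 (adjusted p = 0.279). The calls of POLR1C, NOP56, WDR43, UTP20, PES1, NOP2, LYAR and MYBBP1A held under all settings tried, and these 8 alone were called without knockout replicate 1 after differentiation. Without control replicate 1 before it 9 genes were called. TCOF1, NOP14, NOP16 and GNL3 lost their calls without any 1 of 8, 9, 9 and 8 of the 12 libraries, GAR1 without 5, NOLC1 without 4 and POLR1A without 3. With GC offsets 21 genes had a lower and 1 (UBTF) a higher effect after differentiation. Calls over all genes grew too, to 1703 lower and 1381 higher of 17055 from 1151 and 1082 of 17175.

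While MYC mRNA itself passed no test, some genes of its network did. MXI1, MXD1, MXD3, MXD4, MNT and MGA encode antagonists that compete with MYC for MAX. Of these 6, MXI1 and MXD4 rose in knockout cells before differentiation, and MXI1, MXD3, MXD4 and MNT rose after it. MXI1 measured 74.8, 72.2 and 72.5 CPM in control against 168, 162 and 156 CPM in knockout libraries after differentiation and rose by 1.15 ± 0.07 (adjusted p = 8.67e-10). It also rose before differentiation, by 0.38 ± 0.07 (adjusted p = 6.51e-04), and the effect after it was larger by 0.76 ± 0.09 (adjusted p = 6.56e-05). MXD3 measured 12.2, 10.7 and 9.76 CPM in control against 23.5, 21.1 and 24.3 CPM in knockout libraries after differentiation and rose by 1.07 ± 0.12 (adjusted p = 1.57e-06). Before differentiation MXD3 measured 0.07 ± 0.12 and was not called, and the effects differed by 1.00 ± 0.17 (adjusted p = 8.66e-04). MXD4 rose at both stages, by 0.62 ± 0.14 and 0.99 ± 0.15 (adjusted p = 0.00479 and 4.98e-05). MNT rose after differentiation by 0.64 ± 0.17 (adjusted p = 0.00809), MGA measured -0.17 ± 0.07 there and did not pass the test, and MXD1 fell by 0.21 (SE 0.08, adjusted p = 0.0431). The MXD1 call was lost without any 1 of the 3 control libraries before, the 3 control libraries after or the 3 knockout libraries after differentiation (adjusted p 0.0506 to 0.172), and with DESeq2 (0.0614).

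Turnover and partner genes of MYC changed with differentiation, and some also with the knockout. FBXW7, which marks MYC protein for degradation, rose by 0.99 ± 0.07 in control cells and by 1.49 ± 0.07 in knockout cells (adjusted p = 3.60e-09 and 1.42e-11). It measured 60, 57 and 52 CPM before and 116, 113 and 107 CPM after in control cells, and 150, 154 and 142 CPM after in knockout cells, where it was higher than in control cells by 0.41 ± 0.06 (adjusted p = 9.37e-05). USP28, which removes that mark, was lower in knockout cells after differentiation (-0.40 ± 0.10, adjusted p = 0.00437). With differentiation it fell by 1.09 in control cells (adjusted p = 2.78e-08) and was also called lower in knockout cells (adjusted p = 1.52e-09), and MAX fell by 0.49 in control and 0.55 in knockout cells (adjusted p = 0.00144 and 6.01e-04). MLXIPL, a glucose-responsive factor of the same network, rose by 3.64 ± 0.24 in control and 1.85 ± 0.18 in knockout cells, from 0.54 to 0.759 CPM in the control libraries before. It was higher in knockout cells before differentiation by 2.20 ± 0.28 (adjusted p = 2.71e-05) and measured 0.41 ± 0.16 after it (adjusted p = 0.0649). Of 15 tested network genes (17 listed; MYCN and MYCL were not tested), 4 rose and 0 fell in knockout cells before differentiation (9.07% and 8.15% of all genes), and 5 rose and 2 fell after it (16.8% and 16.3%). With differentiation 5 rose and 2 fell in control cells (21.5% and 22.3% of all genes), and 6 rose and 4 fell in knockout cells (28% and 27.7%). By these shares the falls lie near or under those of all genes. The calls of MXI1, MXD3, MXD4, MNT, FBXW7, USP28, MAX and MLXIPL named here held under all settings tried.

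**Figure D4:**
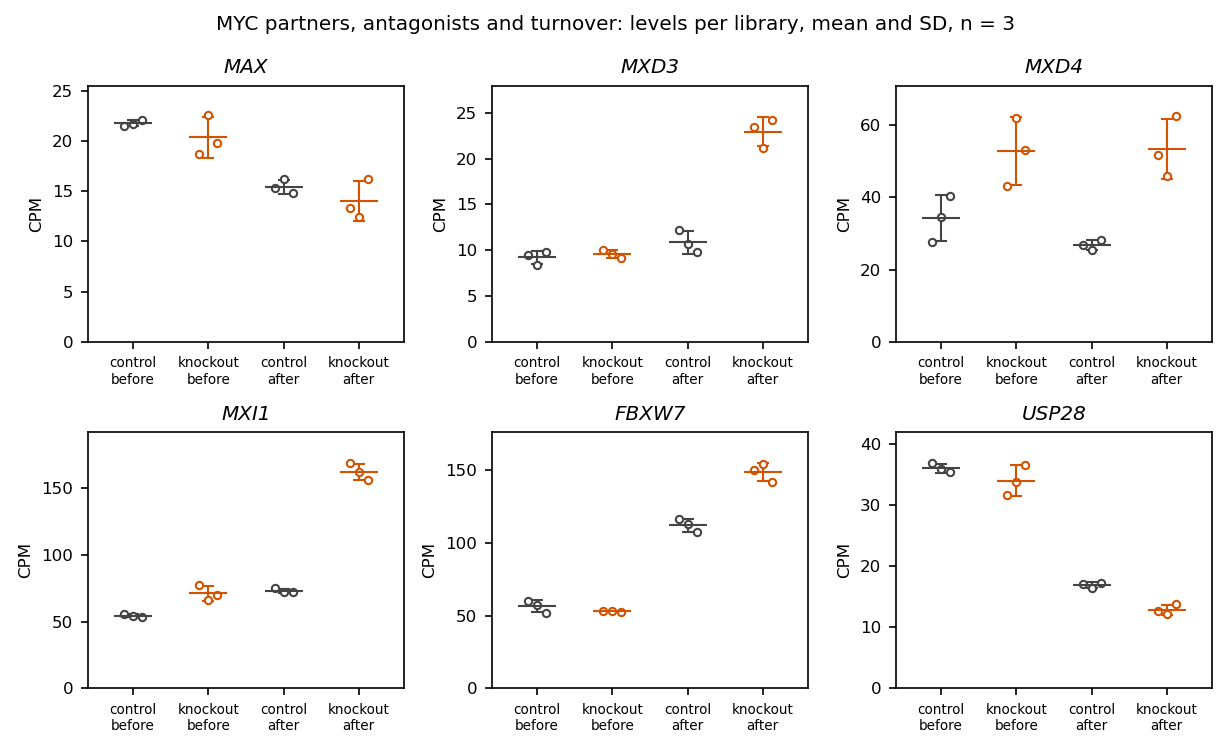
CPM (y axis, starting at 0) of MYC partner MAX, the antagonists MXD3, MXD4 and MXI1, and the turnover genes FBXW7 and USP28 in each of the 12 libraries (open points), with group mean and SD, n = 3. MXI1 and MXD3 are highest in knockout libraries after differentiation (156 to 168 and 21.1 to 24.3 CPM), while FBXW7 rises and USP28 falls with differentiation in both genotypes.

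Other ribosome factors outside the 36, given as lists of further genes of the same complexes, moved in the same directions for both subunits. Before differentiation 12 of 48 other small subunit factors rose in knockout cells and 2 fell, and 11 of 55 other large subunit factors rose and 1 fell, where 9.07% of all genes rose and 8.15% fell. After differentiation 18 of the 48 fell and 2 rose, and 16 of the 55 fell and 1 rose. Of all genes 16.3% fell and 16.8% rose there. The lists' medians were 0.13 and 0.13 before and -0.16 and -0.14 after differentiation, against -0.00 and -0.01 over all genes. In differentiating knockout cells 33 of the 48 and 29 of the 55 fell, with 2 and 3 rising. There 27.7% of all genes fell and 28% rose. WDR46, a nucleolar scaffold of the small subunit, rose by 0.41 ± 0.06 in knockout cells before differentiation (adjusted p = 1.93e-04), and RRP1, a large subunit factor, rose by 0.29 ± 0.07 before and fell by 0.28 after (SE 0.07). The RRP1 calls were lost with GC offsets before differentiation (0.14, adjusted p = 0.149) and without control replicate 2 after it (-0.22, adjusted p = 0.0522).

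Single genes of these lists had larger effects. RCL1, a small subunit processing factor, measured 41.4, 43.1 and 40.3 CPM in control against 58.5, 60.5 and 62.4 CPM in knockout libraries before differentiation. After it RCL1 measured 60.1, 56.3 and 56.2 CPM in control against 93, 93.3 and 93.6 CPM in knockout libraries. It rose in knockout cells at both stages (0.54 ± 0.06 and 0.70 ± 0.06, adjusted p = 9.42e-06 and 1.44e-07) and with differentiation in both genotypes. SBDS, which readies the large subunit for translation, rose in knockout cells after differentiation by 0.65 ± 0.10 (adjusted p = 1.21e-04). DCAF13, a small subunit factor, fell after differentiation in knockout against control cells by 0.53 (SE 0.08, adjusted p = 4.34e-05), and with differentiation by 0.80 in control and 1.08 in knockout cells. It was also called lower in knockout cells before differentiation (-0.25 ± 0.07, adjusted p = 0.0279). Leaving out control replicate 1 or 2, or knockout replicate 1 or 2, ended that DCAF13 call (adjusted p 0.0745 to 0.117), as did a fit of only the groups compared (0.0921) and GC offsets (-0.14, adjusted p = 0.110).

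The shorter lists differed in part. Of 16 tested other Pol I genes, 1 rose and 3 fell in knockout cells before differentiation, and 1 rose and 5 fell after it. With differentiation in knockout cells 1 rose and 9 fell. Over all genes 9.07% rose and 8.15% fell before, and 16.8% rose and 16.3% fell after it. With differentiation in knockout cells 28% of all genes rose and 27.7% fell. RRN3, the initiation factor that links Pol I to its promoter, fell in knockout cells after differentiation by 0.42 (SE 0.07, adjusted p = 1.49e-04). POLR1F, a further Pol I subunit, fell in knockout cells before differentiation by 0.43 (SE 0.08, adjusted p = 6.12e-04). Of 13 other box C/D and H/ACA proteins, 0 rose and 0 fell before differentiation by edgeR (3 higher and 0 lower at an unadjusted p under 0.05, 0 by DESeq2 or limma-voom), 5 fell after it, and 8 fell in differentiating knockout cells. SHQ1, the assembly chaperone of DKC1, fell in knockout cells after differentiation by 0.60 (SE 0.10, adjusted p = 2.78e-04). With 1 library left out, the 12 small and 11 large subunit rises before differentiation moved: 12 became 4 without control replicate 1, and 11 became 2 without knockout replicate 3. After it 18 became 11 without control replicate 3, the 5 Pol I falls became 1 without control replicate 3, and the 5 falls among box C/D and H/ACA proteins became 2 without knockout replicate 2.

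**Figure D5:**
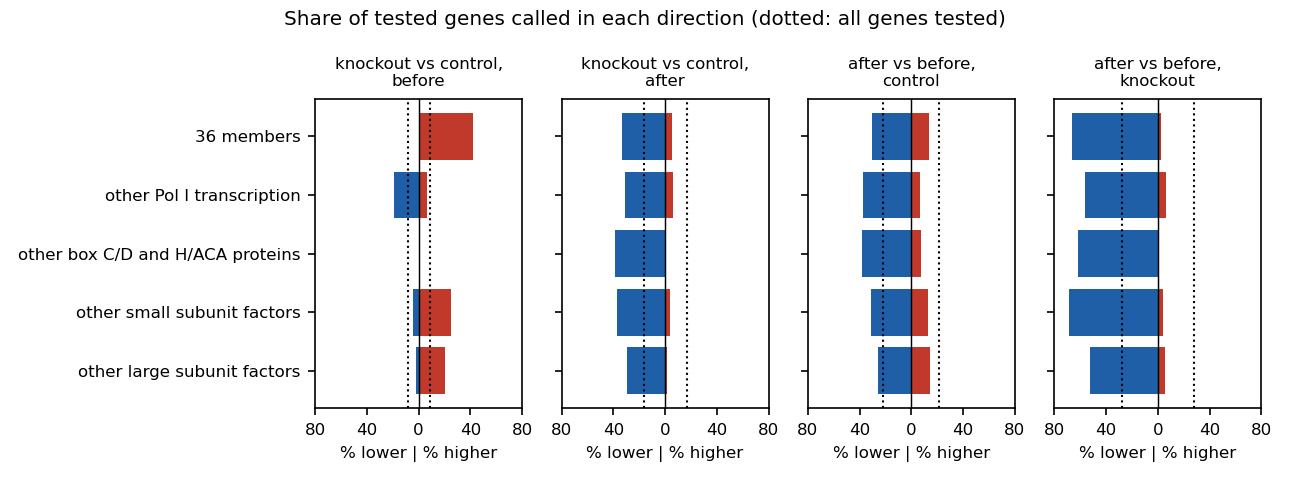
Percent of tested genes called higher (red, right of 0) and lower (blue, left of 0) in 4 contrasts for the 36 genes and 4 lists of other ribosome factors; dotted lines mark the same percent over all 17175 genes tested. Blue bars pass the dotted line for all 5 sets in knockout cells across differentiation, and red bars pass it before differentiation for the 36 genes and for both subunit lists.

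Metabolic genes often listed as MYC targets did not all follow the ribosome genes. Of 31 tested, 7 rose and 0 fell in knockout cells before differentiation (9.07% and 8.15% of all genes), and 5 rose and 10 fell after it (16.8% and 16.3%), the share of rises being close to that of all genes. IMPDH2 and CTPS1, enzymes of guanine and cytosine nucleotide synthesis, rose before it by 0.33 ± 0.06 and 0.40 ± 0.08 (adjusted p = 0.00132 and 0.00271). LDHA, lactate dehydrogenase, rose by 0.30 ± 0.07 before and fell by 0.36 after it (SE 0.07, adjusted p = 0.00612 and 7.65e-04). With differentiation LDHA fell by 1.41 in control cells, from 525, 582 and 558 CPM to 201, 212 and 215 CPM, and by 2.06 in knockout cells, from 620, 701 and 725 CPM to 169, 161 and 160 CPM. The amino acid transporter SLC7A5 rose with differentiation by 1.39 ± 0.13 and 1.91 ± 0.13, and the transferrin receptor TFRC, also an erythroid marker, rose in knockout cells after it by 0.79 ± 0.09. No library after differentiation reached the LDHA level of any library before it. Of the 31 genes, 7 rose and 15 fell with differentiation in control cells (21.5% and 22.3% of all genes). In differentiating knockout cells 6 rose and 17 fell (28% and 27.7% of all genes). The knockout effect was lower after differentiation than before it for 10 and higher for 1 (6.7% and 6.3% of all genes).

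Of the 36 genes, 6 (NOP56, NOP58, DKC1, WDR43, NCL and GNL3) carried small nucleolar RNA genes within their spans, 23 in all. Of these 23, 8 had 0 counts in all libraries and 10 passed the filter. By edgeR's quasi-likelihood test none of the 10 was called in any contrast, 1 had an unadjusted p under 0.05 (higher after differentiation in knockout cells), and none was called by DESeq2 or limma-voom. Their group means were low, 0.653 (SNORD92) to 7.75 CPM (SNORA75), with SEs of 0.24 to 0.60 on the log2 scale. Changes of the size seen in the 36 genes could thus be missed. Of the 8 without counts, 6 lie wholly within exons of their host on the same strand. The recorded counting command has neither a strand option nor one that assigns a read to several genes, and 20 of the 36 share exon bases with another gene, most of all NHP2 (27.4% of its exon length) and HEATR1 (23.2%), so reads over those bases may be missing from their levels. Named processed copies held 71.3% of the counts of NHP2 and 5.52% of those of PES1, and with these copies added PES1 was called lower in knockout cells after differentiation (-0.17, adjusted p = 0.0458).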

How the data were processed

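RNA was sequenced from 12 libraries of HUDEP-2 cells, 3 in each of 4 groups taken from the labels. Per the labels' protocols, a stranded total RNA kit with removal of ribosomal and globin RNA was used. The authors deposited raw counts per gene. Per the file headers, featureCounts 1.4.6-p4 counted them on GENCODE 22 (hg38) with no strand option, while the submitters' processing notes name featureCounts 1.2.6 and Subread 1.6.2.

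The deposited counts were fitted with edgeR 4.0.16 (R 4.3.3): genes kept by filterByExpr (minimum count 10, total 15), TMM scaling, 1 mean per group over 12 libraries, quasi-likelihood test, and Benjamini-Hochberg adjustment over 17175 genes with a threshold of 0.05. The fit was tested on simulated data. The standard error is the absolute log2 change divided by the square root of F. Library totals of 7667997 to 14047498 counts and the spread between libraries both limit the precision of each value. Same-group libraries differed by more than sampling noise (chi-square per gene 5.42 to 21.5), and 3 against 3 libraries cannot give an exact permutation p below 0.1.

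The 36 genes and the lists were chosen with earlier results of these data known. The text names MYC, MBD2, up to 5 of the 36 genes per direction with the smallest adjusted p in each contrast, up to 4 with the largest summed absolute change, and up to 3 per direction from each other list. The other genes of the 36 are given by counts or a log2 change. The labels do not say that replicate numbers pair the samples, and the main fit used no pairing. The alternatives were other scalings (library sizes, RLE, upper quartile), filters (none, at least 1 CPM in 3 libraries), DESeq2 1.42.0, limma-voom 3.58.1, a fit of only the groups compared, a replicate block, no chromosome 18 genes and each library left out. Offsets for GC content, added counts of processed copies and erythroid markers without globin genes were chosen after seeing the data.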

Additional observations from a re-analysis of the deposited data

Results flagged for a closer look

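The knockout effect differed between the 2 stages in 15 of the 36 genes by the test of the difference itself (edgeR's quasi-likelihood test, adjusted over all genes). Each value is the log2 effect of knockout after differentiation minus that before it, and all 15 were negative. In Pol I transcription the difference was -0.47 for POLR1A, -0.52 for POLR1C and -0.50 for TCOF1. In the modification particles it was -0.40 for NOP56, -0.55 for GAR1 and -0.39 for NOLC1. Small subunit factors had -0.38 (WDR43), -0.53 (UTP20) and -0.34 (NOP14), and large subunit factors -0.48 (PES1), -0.705 (NOP2) and -0.46 (NOP16). The other nucleolar proteins had -0.375 (GNL3), -0.55 (LYAR) and -0.89 (MYBBP1A). For MYBBP1A, NOP2 and LYAR the effect itself went from higher to lower, each call past the threshold. None of these 3 genes kept both calls under all settings tried. Groups of 3 libraries were not tested for single outlying libraries.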

How the results depend on the processing

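The counts of called genes depended most on scaling and on single libraries. With library sizes alone 9 of the 36 genes were called in knockout against control cells before differentiation, 23 after it and 26 in the difference between stages, against 15, 14 and 15. There the median of all genes moved to -0.16 in differentiating knockout cells and -0.14 in the difference between stages, and the share of higher calls over all genes went from 50.3% to 35.1% and from 48.5% to 23.1%. The 36 genes' medians relative to these shifts were -0.48 and -0.34, values that a change of scaling alone leaves nearly fixed. DKC1 in differentiating knockout cells turned from 0.00 to -0.18 with library sizes alone. A fit of only the groups compared called 8 before differentiation. With 1 library left out the called genes ranged from 5 to 17 before, 6 to 16 after, 9 to 16 with differentiation in control cells, 25 to 29 in knockout cells, and 8 to 19 in the difference between stages. The cause was not tested. Of 180 gene and contrast pairs DESeq2 lost 2 calls and gained 4, and limma-voom lost 1 and gained 3, with no called direction turned. The labels do not say that replicate numbers pair the samples. Between libraries of the same number, deviations from the group means correlated by -0.0179 to 0.241. Of 12 libraries, 3 were closest to their own number in every other group. These values do not decide whether the numbers pair the libraries. With the replicate block 19, 16, 16, 28 and 19 genes were called in the 5 contrasts, and no call was lost.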
